A study of Mus musculus with 3 samples.

Results

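The expression of 9 genes was followed through single-cell transcriptomes of the mouse heart: Gpihbp1, Lpl, Cd36, Fabp4, Fabp5, Aqp7, Meox2, Tcf15 and Pparg, which in endothelial cells (ECs) take part in the uptake of fatty acids. These members were chosen by name and not by a threshold on their values, though with earlier results of these data known. They were 9 of the 27998 genes in each of the 3 count matrices. The study measured non-cardiomyocytes (non-CMs) of the ventricles of wild-type mice by droplet-based single-cell RNA sequencing (scRNA-seq) before and after transverse aortic constriction (TAC), an operation that narrows the aortic arch and puts the heart under pressure overload. Per its methods the operated mice were male C57BL/6J JCL mice, 8 weeks old at the operation. The 3 phases were healthy (control, 0 weeks), adaptive hypertrophy (2 weeks of TAC) and heart failure (12 weeks of TAC). Each phase was 1 library, and how many animals a library held is not given in the sources used here. Cells were labelled by the larger of several marker gene sums, as ECs, fibroblasts (FBs), mural cells (smooth muscle cells and pericytes) or blood cells, and ECs were divided into capillary (Car4, Aplnr), arterial (Gja4, Gja5) and venous/endocardial (Vwf, Npr3) cells by the larger of these pairs. No member was among the genes of these rules.

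The working heart burns mostly fatty acids, and these have to cross the capillary wall. Lipoprotein lipase (Lpl) splits the triglycerides of circulating lipoproteins, and Gpihbp1 carries it to the luminal face of capillary ECs and holds it there. Cd36 is a membrane receptor that takes up long-chain fatty acids, Fabp4 and Fabp5 bind them inside the cell, and Aqp7 is a channel for water and glycerol, the other product of triglyceride splitting. Meox2 and Tcf15 are transcription factors known to drive fatty acid uptake in heart ECs, and Pparg is a nuclear receptor that is activated by fatty acids.

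On GRCm38, the build that the submitters' notes name as mm10, the GENCODE M21 annotation places these protein-coding genes on 8 chromosomes: Gpihbp1 at chr15:75596628-75599481, Lpl at chr8:68880491-68907448, Cd36 at chr5:17781690-17888801, Fabp5 at chr3:10012548-10016607, Fabp4 at chr3:10204088-10208576, Aqp7 at chr4:41033074-41048139, Meox2 at chr12:37108540-37179534, Tcf15 at chr2:152143561-152149097 and Pparg at chr6:115360951-115490399. Fabp5 and Fabp4 lie on the same chromosome, with 187481 bases between them. Fabp5 has processed copies elsewhere in the genome whose reads may be shared with it, so its counts are uncertain to that extent. RefSeq sequences before the start site (GRCm38.p6) were at hand for 4 members. Those of Cd36 and Aqp7 are shown because each holds AGGTCA, the core motif bound by nuclear receptors such as Pparg and its partner Rxra. Capitals mark motifs found on either strand; the Cd36 stretch belongs to a start site inside the annotated gene, and the Aqp7 stretch ends where the annotated exon begins.
Cd36, chr5:17835897-17836146, minus strand: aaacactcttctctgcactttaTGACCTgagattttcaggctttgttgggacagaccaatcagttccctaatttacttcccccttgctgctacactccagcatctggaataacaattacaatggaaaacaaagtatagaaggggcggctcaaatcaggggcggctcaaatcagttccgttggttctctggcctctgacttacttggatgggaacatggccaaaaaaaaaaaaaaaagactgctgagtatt
Aqp7, chr4:41048140-41048386, minus strand: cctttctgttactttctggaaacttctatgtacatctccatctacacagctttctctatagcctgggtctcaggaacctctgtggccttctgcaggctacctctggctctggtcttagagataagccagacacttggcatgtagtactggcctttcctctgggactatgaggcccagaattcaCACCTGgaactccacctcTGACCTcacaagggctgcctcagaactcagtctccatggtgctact

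In the Cd36 stretch AGGTCA, read on the other strand as TGACCT, began 228 bases before the start site. In the Aqp7 stretch it began 49 bases before the start site, again on the other strand, and the E-box CAGGTG, read as CACCTG, began 67 bases before it. AGGTCA stood in 14.0% and CAGGTG in 17.2% of the 32851 stretches of 250 bases before RefSeq start sites, so that neither was rare. The other motifs searched on both strands, the E-boxes CACGTG and CAGCTG and the homeodomain core TAATTA, stood in 6.02%, 13.0% and 4.84% of them and in neither stretch. None of the 5 motifs was found in the stretch before the Meox2 start or before the one Pparg start that lay clear of annotated exons. These are matches of letters and not sites shown to be bound.

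After cells with under 200 genes were left out, the libraries held 3892, 2231 and 792 cells at 0, 2 and 12 weeks, with a median of 2589, 1495 and 1434 unique molecular identifiers (UMIs) per cell. Of these 6915 cells, 3085 were ECs (1075, 1713 and 297), 1557 FBs, 550 mural cells and 1296 blood cells. The 8 EC markers summed to 5349, 6365 and 6669 counts per 1000000 UMIs of a group (CPM) in ECs and to no more than 163 in FBs and 139 in blood cells, which the gate by these same markers had fixed. Mural cells held 1346, 1549 and 1068 CPM of the EC markers, and the share of free RNA or mixed droplets in this was not tested. Of 6906 different cell barcodes, 9 occurred in more than 1 library. Levels are CPM of a class summed within a library, with exact Poisson intervals, which cover counting error only and not the variation between cells or animals.

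All 9 members were highest in ECs. The level in ECs was above that in each other class in 27 of 27 pairs of gene and library, and in 26 of them its 95% interval lay above all the others. With the UMIs summed per class and the libraries as blocks (edgeR, n = 3 libraries, each from another phase), 9 of 9 members were higher in ECs than in FBs, where 20% of all genes tested were, 9 of 9 were higher in ECs than in mural cells against 15.9% of genes, and 9 of 9 were higher in ECs than in blood cells against 20.1%. Every member passed the filter on low counts in these 3 comparisons. The members had been chosen as genes that act in ECs, so these counts are not those of a blind choice.

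**Figure D1:**
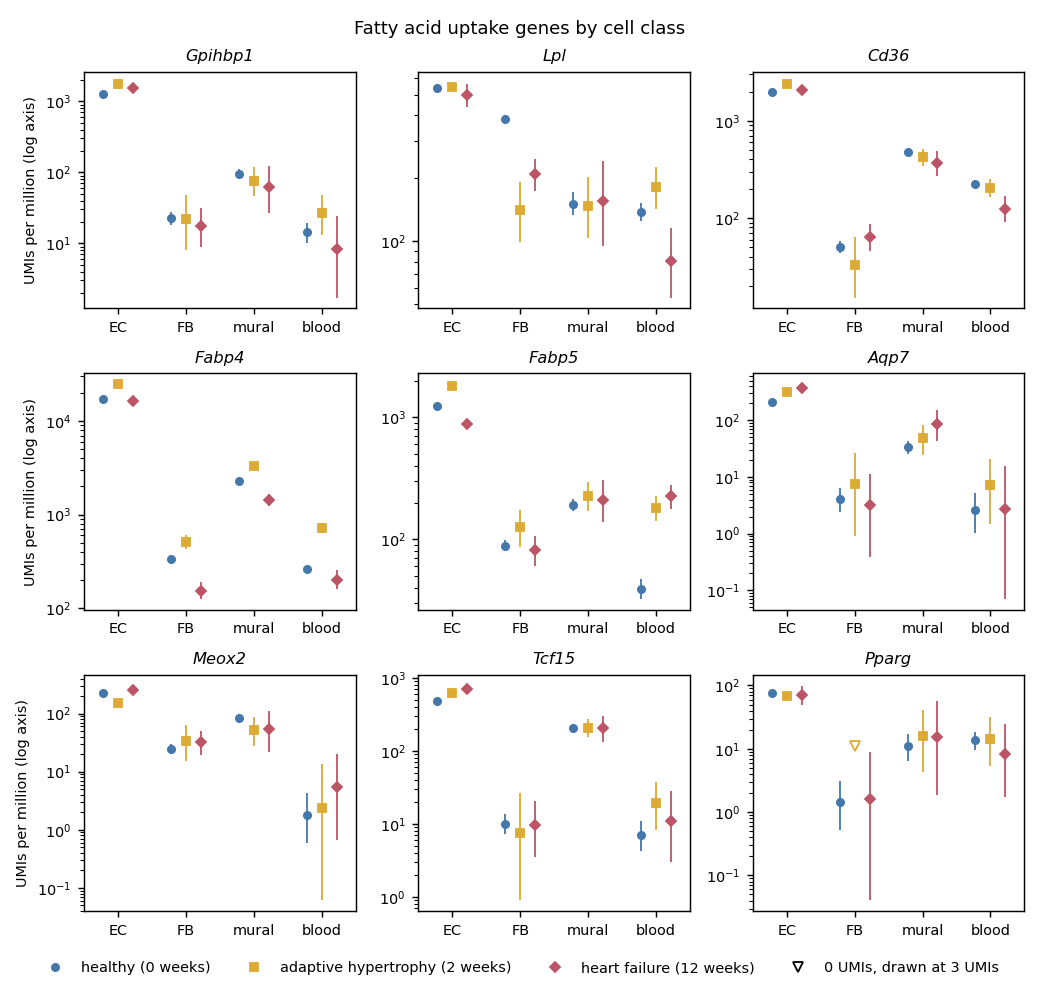
CPM of each member (y axis, log scale, own range per panel) in ECs, FBs, mural cells and blood cells, 1 point per library with its 95% counting interval. The EC points stand above those of every other class in all 9 panels. FBs are nearest for Lpl in the healthy and 12-week libraries. Mural cells are next in every library for Gpihbp1, Cd36, Fabp4, Aqp7, Meox2 and Tcf15.

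At the capillary wall, Gpihbp1 stood at 1269, 1779 and 1527 CPM in ECs at 0, 2 and 12 weeks. It was at 22.5, 22.2 and 17.5 CPM in FBs, 94.2, 75.8 and 62.4 in mural cells and 14.3, 26.5 and 8.32 in blood cells, so that mural cells came nearest to ECs and remained far below them. The EC level was higher than that of FBs by 6.04 ± 0.27 on the log2 scale (SE, adjusted p = 4.53e-12), the widest gap of the 9 members in that comparison. Lpl was spread more widely. It was at 539, 545 and 498 CPM in ECs, 383, 140.4 and 208 in FBs, 151, 148 and 156 in mural cells and 138, 181 and 80.4 in blood cells. ECs were still higher than FBs (log2 fold change 1.13 ± 0.24 (SE), adjusted p = 0.000705), but in the healthy library alone the ratio was only 1.41, against 3.88 at 2 weeks and 2.39 at 12 weeks.

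The uptake receptor Cd36 stood at 1957, 2406 and 2065 CPM in ECs, 483, 423 and 367 in mural cells, 225, 205 and 125 in blood cells and 50.2, 33.3 and 63.6 in FBs, an order in which the ranges over the libraries did not overlap. Fabp4 was at 17136, 24614 and 16528 CPM in ECs, 2312, 3282 and 1443 in mural cells, 261, 718 and 202 in blood cells and 333, 509.8 and 154 in FBs. Blood cells and FBs overlapped in Fabp4, and each was highest at 2 weeks, in the library in which ECs made up 76.8% of the cells and had their own highest Fabp4 level. In FBs this rested on 1 cell with 81 of the 138 UMIs, and without the 3 top cells of each library the FB levels were 278, 201 and 144 CPM, highest at 0 weeks. In blood cells they were 208, 424 and 186 CPM by the same count, still highest at 2 weeks. Fabp5 was at 1231, 1820.0 and 878 CPM in ECs, 191, 228 and 211 in mural cells, 39.6, 181 and 225 in blood cells and 88.8, 126 and 81.1 in FBs, and the range of blood cells overlapped those of both mural cells and FBs. Aqp7 was at 211, 310.2 and 375 CPM in ECs and 33.6, 47.9 and 85.8 in mural cells, with at most 17 UMIs in a library's FBs and 7 in its blood cells.

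Of the transcription factors, Tcf15 stood at 474, 618 and 702 CPM in ECs, 207, 208 and 203 in mural cells, 10.0, 7.39 and 9.55 in FBs and 6.97, 19.3 and 11.1 in blood cells. Its lead over mural cells was the smallest of the 9 members (log2 fold change 1.38 ± 0.19 (SE), adjusted p = 9.89e-06). Meox2 was at 228, 154 and 253 CPM in ECs, 83.8, 51.9 and 54.6 in mural cells, 24.6, 33.3 and 31.8 in FBs and 1.83, 2.41 and 5.55 in blood cells. Pparg was at 76.2, 67.4 and 71.2 CPM in ECs, 11.0, 16.0 and 15.6 in mural cells and 13.6, 14.5 and 8.32 in blood cells. FBs had 6, 0 and 1 Pparg UMIs, where 3 UMIs in the FBs of the 2-week library would have been 11.1 CPM.

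UMIs of the members were also set against those of Gpihbp1 in the same class. The Gpihbp1 UMIs numbered 94, 6 and 11 in FBs, 154, 19 and 8 in mural cells and 39, 11 and 3 in blood cells. The values of these classes at 2 and 12 weeks thus rest on few UMIs. Tcf15 had 0.373, 0.347 and 0.460 UMIs per Gpihbp1 UMI in ECs. It had 0.447, 0.333 and 0.545 in FBs, on 42, 2 and 6 Tcf15 UMIs, but 2.20, 2.74 and 3.25 in mural cells. Fabp4 had 13.5, 13.8 and 10.8 in ECs and 14.8, 23.0 and 8.82 in FBs, which lay on both sides of the EC values. Of the 138 Fabp4 UMIs behind the FB value of 23.0, 81 were in 1 cell. Lpl had 0.425, 0.307 and 0.326 in ECs and 17.01, 6.33 and 11.9 in FBs. Cd36 had 1.54, 1.35 and 1.35 in ECs, 5.13, 5.58 and 5.88 in mural cells and 15.7, 7.73 and 15.0 in blood cells. For Aqp7 the FB and blood values, from 0.179 to 0.333, lay near the EC values of 0.167, 0.174 and 0.246, on at most 17 UMIs each. The part of free RNA in these levels was not tested.

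Within mural cells, Cd36 was at 926, 805 and 877 CPM in the cells with more pericyte than smooth muscle markers and at 213, 221 and 228 CPM in those with more smooth muscle markers. Aqp7 was likewise at 77.8, 132 and 183 against 6.95, 6.13 and 59.5 CPM. Tcf15 did not divide in this way, with 289, 144 and 219 CPM in the former and 159, 239 and 198 in the latter. The EC markers themselves were at 1913, 2512 and 1352 CPM in the pericyte-marked cells and 996, 1079 and 992 in the smooth muscle-marked cells, and their part in the members' levels there was not tested. Within blood cells, macrophage-marked cells held Cd36 at 239, 222 and 201 CPM and Lpl at 147, 222 and 164 CPM, while neutrophil-marked cells had 0 UMIs of either in all 3 libraries, on 3, 6 and 13 cells. A few cells carried part of this: without the 3 top cells of each library, Lpl in macrophage-marked cells was at 131, 129.97 and 35.6 CPM and Cd36 at 230.4, 177 and 145. Adipocytes, in which Fabp4, Lpl, Cd36, Aqp7 and Pparg are also high, were looked for only in the EC, FB, mural and blood classes. Of 6 adipocyte markers, Adipoq, Plin1, Cidec and Cfd had 0 UMIs in every class of every library. Retn had at most 2 in blood cells and only Lipe was detected in ECs, FBs and mural cells. The 359 unassigned cells were not searched for these markers, so whether adipocytes were among them was not tested.

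Within ECs most members were highest in capillary cells. There were 602, 862 and 113 capillary ECs at 0, 2 and 12 weeks, 60, 96 and 35 arterial ECs and 63, 98 and 19 venous/endocardial ECs, while 337, 627 and 120 ECs had no UMI of the 6 genes and were left out of this comparison. Capillary ECs had the highest level in 26 of 27 pairs of gene and library, the exception being Fabp5 in the healthy library, and in 16 of the 27 the capillary interval lay above both others. In that library 11 cells with an Npr3 UMI held 178 of the 312 Fabp5 UMIs of venous/endocardial ECs. In edgeR with the libraries as blocks, 8 of 9 members were higher in capillary than in arterial ECs, against 7.77% of all genes tested. Of the 9 members, 6 were higher in capillary than in venous/endocardial ECs, against 6.84% of all genes.

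**Figure D2:**
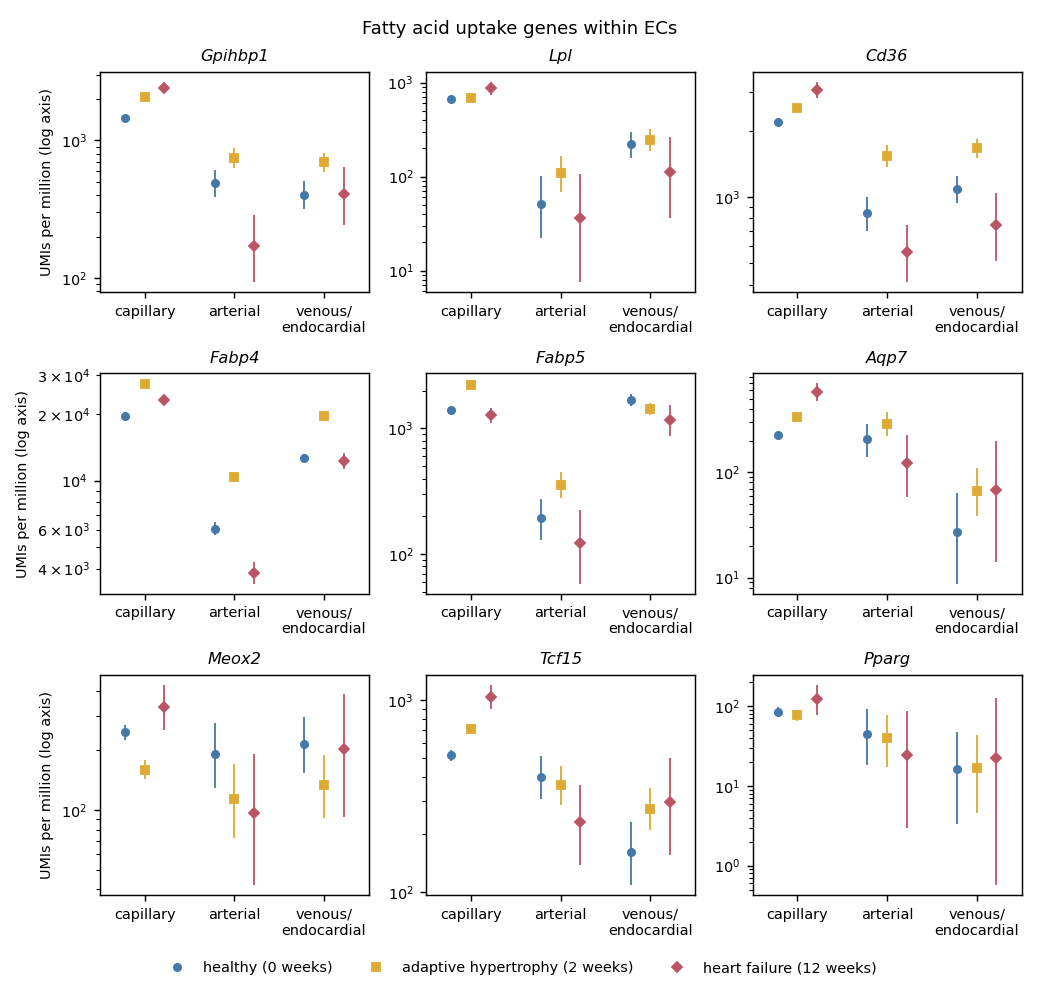
CPM of each member (y axis, log scale, own range per panel) in capillary, arterial and venous/endocardial ECs, 1 point per library with its 95% counting interval. Capillary points stand highest in every panel except that of Fabp5, where the healthy venous/endocardial point is above the healthy capillary one.

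Lpl differed most between capillary and arterial ECs. It was at 667, 679 and 865 CPM in capillary ECs, a range above both others. Arterial ECs had 51.5, 109 and 36.5 CPM, on 8, 22 and 3 UMIs. Venous/endocardial ECs had 221, 247 and 113 CPM, on 41, 59 and 5 UMIs. These latter ranges were parted only by 109 against 113 CPM. The arterial level was 0.233 (counting interval 0.0942 to 0.503) of the venous/endocardial one at 0 weeks and 0.442 (0.258 to 0.733) at 2 weeks. At 12 weeks it was 0.323 (0.0502 to 1.66), too wide to give an order. Capillary ECs were above arterial ECs by 3.35 ± 0.27 on the log2 scale (SE, adjusted p = 5.84e-12) and above venous/endocardial ECs by 1.70 ± 0.22 (adjusted p = 7.71e-06). Its anchor Gpihbp1 was at 1459, 2058 and 2423 CPM in capillary ECs, 489, 751 and 170.5 in arterial ECs and 405, 696 and 407 in venous/endocardial ECs, and the ranges of the latter 2 overlapped. Both capillary comparisons of Gpihbp1 were called (2.09 ± 0.28 and 1.88 ± 0.22, adjusted p = 5.24e-07 and 1.35e-06). Cd36 was at 2200.4, 2545 and 3071 CPM in capillary ECs, 843, 1537 and 560.1 in arterial ECs and 1089.6, 1669 and 746 in venous/endocardial ECs, with log2 differences of 1.49 ± 0.26 and 1.10 ± 0.23 (adjusted p = 3.12e-05 and 0.00143).

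The 2 fatty acid binding proteins set arterial ECs apart from the rest. Fabp5 was at 193, 358 and 122 CPM in arterial ECs but at 1397, 2213 and 1269.6 in capillary ECs and 1683, 1434 and 1175 in venous/endocardial ECs. Capillary ECs exceeded arterial ECs by 2.92 ± 0.25 (adjusted p = 1.71e-11), whereas the difference from venous/endocardial ECs, 0.16 ± 0.21, did not pass (adjusted p = 0.714) and was -0.068 without the 2-week library. Fabp4 was at 19697, 27277 and 23152 CPM in capillary ECs, 12697, 19579 and 12314 in venous/endocardial ECs and 6072, 10433 and 3835 in arterial ECs. Its capillary lead over arterial ECs was called (log2 fold change 1.93 ± 0.32 (SE), adjusted p = 1.62e-05) and that over venous/endocardial ECs missed the threshold (log2 fold change 0.67 ± 0.23 (SE), adjusted p = 0.0505), though it passed with DESeq2 (adjusted p = 0.00673) and without the 12-week library (adjusted p = 0.0248).

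Aqp7 had the opposite order among the larger vessels. It was at 228, 335 and 577 CPM in capillary ECs, 206, 288 and 122 in arterial ECs and 27.0, 67.1 and 67.8 in venous/endocardial ECs. Its capillary and arterial levels were 1.11 and 1.16 times apart at 0 and 2 weeks and 4.74 times at 12 weeks, and the comparison missed the threshold (log2 fold change 0.67 ± 0.24 (SE), adjusted p = 0.0509). The capillary lead over venous/endocardial ECs was the largest of the 9 members there (log2 fold change 2.64 ± 0.27 (SE), adjusted p = 2.03e-07). Between arterial and venous/endocardial ECs directly, Aqp7 was higher in arterial ECs (log2 fold change 2.10 ± 0.34 (SE), adjusted p = 0.00187). It was the 1 member of 8 tested that was higher there, against 3.2% of all genes. Fabp4, Fabp5 and Lpl were lower in arterial ECs, 3 members of 8 against 2.92% of all genes, with log2 fold changes of -1.26 ± 0.17, -2.71 ± 0.25 and -1.60 ± 0.30 (SE, adjusted p = 0.000497, 4.61e-05 and 0.00478). The calls of Aqp7 and Lpl there were lost without the 2-week library (adjusted p = 0.0856 and 0.0807), and that of Aqp7 between capillary and arterial ECs was gained without the healthy or the 2-week library (adjusted p = 0.0155 and 0.032). Pparg did not pass the filter on low counts in that comparison.

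The transcription factors were less uniform. Tcf15 was at 516, 707 and 1042 CPM in capillary ECs, 399, 363 and 231 in arterial ECs and 162, 273 and 294 in venous/endocardial ECs, and both capillary comparisons were called (1.09 ± 0.23 and 1.56 ± 0.20, adjusted p = 0.000584 and 6.21e-06). Pparg was at 85.0, 76.5 and 122 CPM in capillary ECs, 45.0, 39.8 and 24.4 in arterial ECs and 16.2, 16.8 and 22.6 in venous/endocardial ECs, on 7, 8 and 2 UMIs in arterial ECs and 3, 4 and 1 in venous/endocardial ECs. Both of its comparisons were called (1.22 ± 0.35 and 2.29 ± 0.41, adjusted p = 0.0118 and 0.000317). Meox2 was at 247, 160.4 and 333 CPM in capillary ECs, 193, 114 and 97.4 in arterial ECs and 216, 134 and 203 in venous/endocardial ECs, ranges that overlapped. Its capillary lead was called over arterial ECs (log2 fold change 0.74 ± 0.24 (SE), adjusted p = 0.0261) and not over venous/endocardial ECs (log2 fold change 0.30 ± 0.20 (SE), adjusted p = 0.406). The calls of Meox2 and Pparg between capillary and arterial ECs were lost when a library was left out, Meox2 without the 2-week or the 12-week library (adjusted p = 0.0643 and 0.187) and Pparg likewise (0.0511 and 0.0715).

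The capillary gate brought other differences with it. CM markers, from 8 genes such as Myl2 and Tnnt2, summed to 935, 637 and 222 CPM in capillary ECs at 0, 2 and 12 weeks, to 154, 174 and 12.2 in arterial ECs and to 399, 344 and 90.4 in venous/endocardial ECs. With the cells that had 3 or more CM markers left out, 7 members were called in each of the capillary comparisons, since Meox2 lost its call against arterial ECs (adjusted p = 0.0507) and Fabp4 gained one against venous/endocardial ECs (adjusted p = 0.0135).

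The venous/endocardial cells were mostly Vwf cells: 11, 2 and 2 of them had an Npr3 UMI, a marker of the endocardium. In the 11 healthy Npr3 cells, Fabp5 was at 5839.7 CPM (95% interval 5013 to 6763), against 865 CPM in the 52 healthy venous/endocardial cells without Npr3. All 11 had a Fabp5 UMI, and without the top 3 cells, which held 56.2% of these UMIs, the level was 3515 CPM. FB markers differed too, with 1214 CPM in the Npr3 cells, on 37 UMIs that were mostly of Dcn, with 5 of the 8 markers seen, against 232 in the cells without Npr3, and their part in the Fabp5 level was not tested. The 11 Npr3 cells had 1 UMI each of Gpihbp1 and Lpl and 0 of Meox2, Tcf15, Aqp7 and Pparg, where 3 UMIs would be 98.4 CPM, and Fabp4 was at 3937 CPM against 14421. The 2 Npr3 cells of each other library were too few to set beside them. This was 1 library, so no test was made. In the 25 healthy ECs with 3 or more lymphatic markers, Cd36 and Fabp4 were at 118 and 800.4 CPM, below each of the 3 EC groups of that library, while Gpihbp1 was at 529.7 CPM.

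Over the course of TAC the members did not move as a block in ECs. With 1 library per phase there is no test between phases, an interval covers counting error only, and phase cannot be told apart from library. Both later phases are set against the same healthy library. A level was counted as changed in size when it differed at least 1.5-fold with 50 or more UMIs over both libraries. At 2 weeks 0 of 9 members lay that far above the healthy level in ECs, against 11.7% of all genes, and 0 of 9 lay that far below it, against 11%. Several came close: the ratio to the healthy level was 1.48 (95% interval 1.42 to 1.54) for Fabp5, 1.47 (95% interval 1.33 to 1.62) for Aqp7 and 1.44 (95% interval 1.42 to 1.45) for Fabp4. Gpihbp1, Tcf15 and Cd36 followed at 1.40, 1.30 and 1.23, so that 6 of 9 members had intervals above 1 and Meox2 alone, at 0.674 (95% interval 0.601 to 0.756), had one below. The share of all genes with such intervals was not counted, and an interval narrows as UMIs rise. Lpl, at 1.01 (95% interval 0.947 to 1.08), was near 1. The median log2 ratio of the 9 members was 0.38, against 0.02 over all 8390 genes with 50 UMIs.

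At 12 weeks the pattern was another. Aqp7, at 1.77 (95% interval 1.496 to 2.10), was 1 of 9 members past 1.5-fold in the upward direction, against 17.9% of all genes, and 0 of 9 were past it downward, against 14.4%. Tcf15 was at 1.48 (95% interval 1.31 to 1.67) and Gpihbp1 at 1.20 (95% interval 1.11 to 1.30). Fabp5 was below the healthy level, at 0.713 (95% interval 0.643 to 0.789), and was 0.482 of its 2-week level, while Fabp4 was at 0.965 (95% interval 0.942 to 0.988). Cd36, Lpl, Meox2 and Pparg had intervals that held 1. The median log2 ratio of the members was 0.08, against 0.07 over all 6861 genes. The makeup of the ECs differed too: 56.0%, 50.3% and 38.0% were capillary at 0, 2 and 12 weeks, 5.58%, 5.60% and 11.8% were arterial, and 31.3%, 36.6% and 40.4% had no UMI of the 6 genes, at a median of 2224, 1528 and 1340 UMIs per EC.

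**Figure D3:**
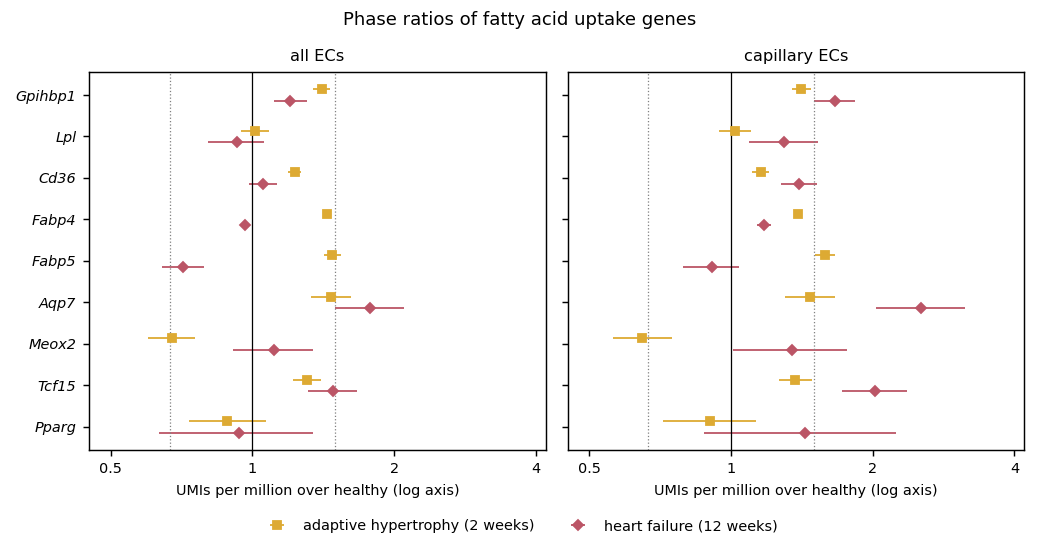
Ratio of the CPM to that of the healthy library (x axis, log scale) for each member in all ECs (left) and in capillary ECs (right) at 2 and 12 weeks of TAC, with 95% counting intervals, a solid line at 1 and dotted lines at 1.5-fold either way. Meox2 is the only member with its 2-week interval below 1, and in capillary ECs at 12 weeks Aqp7, Tcf15 and Gpihbp1 lie past the upper dotted line.

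Within capillary ECs, the upward ratios at 12 weeks were larger than in all ECs, and 8 of 9 members had a ratio above 1. The median log2 ratio of the 9 members was 0.48, against 0.03 over the 5165 genes with 50 UMIs. Aqp7 was at 228, 335 and 577 CPM at 0, 2 and 12 weeks, 2.53 (95% interval 2.03 to 3.14) times its healthy level at 12 weeks. Tcf15 was at 516, 707 and 1042 CPM, 2.02 (95% interval 1.72 to 2.36) times, and Gpihbp1 at 1459, 2058 and 2423 CPM, 1.66 (95% interval 1.499 to 1.84) times. In each of these 3 genes the level was lowest at 0, between at 2 and highest at 12 weeks, and none of the 3 intervals at 12 weeks overlapped the healthy one. The order was not theirs alone: Cd36, at 2200, 2545 and 3071 CPM, and Lpl, at 667, 679 and 865 CPM, rose in the same order. The 3 genes named first were those past 1.5-fold. They were 3 of 9 members past 1.5-fold upward, against 20.4% of all genes, with 0 of 9 downward against 19.7%. Cd36, Meox2, Lpl and Fabp4 were at 1.40, 1.34, 1.30 and 1.18 times their healthy levels with intervals above 1. The interval of Pparg, at 1.44 (95% interval 0.877 to 2.24), held 1. Fabp5, at 0.909 (95% interval 0.791 to 1.04), was the exception.

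At 2 weeks in capillary ECs, Fabp5, at 1.58 (95% interval 1.51 to 1.66), was 1 of 9 members past 1.5-fold upward, against 11.1% of all genes. Meox2, at 0.648 (95% interval 0.560 to 0.749), was 1 of 9 past it downward, against 11.4%. Its capillary levels were 247, 160.4 and 333 CPM, so that the 2-week library was the low one and the 12-week library the highest. The CM marker sum in capillary ECs moved with the phases, as given above. With cells of 3 or more CM markers left out, the 12-week log2 ratios in capillary ECs were 1.23 for Aqp7, 0.98 for Tcf15 and 0.66 for Gpihbp1, against 1.34, 1.01 and 0.73 with all cells.

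Other EC groups gave other values at 12 weeks, and the differences between groups were not tested. In the 35 arterial ECs of that library the median log2 ratio of the 9 members was -0.76, against 0.01 over the 743 genes with 50 UMIs. Only 4 of the 9 members had 50 UMIs there, so the 2 medians are of unlike sets. Gpihbp1 there, at 489, 751 and 170.5 CPM over the phases, was at 0.349 (95% interval 0.182 to 0.622) of its healthy level on 14 UMIs. In ECs with no UMI of the 6 genes, Aqp7 was at 1.77 (95% interval 1.29 to 2.39) and Tcf15 at 1.45 (95% interval 1.15 to 1.80) of the healthy level, nearer to the capillary values.

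Depth per cell was lower at 2 and 12 weeks, so shares of cells with a UMI were taken after each cell was thinned to 1000 UMIs, which kept 1075, 1288 and 200 ECs and left out the shallower ones. Gpihbp1 was seen in 61.0%, 71.3% and 63.5% of ECs at 0, 2 and 12 weeks, against 78.9%, 79.2% and 68.4% before thinning. In blood cells, which should lack it, the thinned share was 1.48%, 2.72% and 0.909%, at median depths of 2610, 1575 and 1749 UMIs before thinning against 2224, 1528 and 1340 in ECs. Tcf15 was seen in 35.2%, 41.2% and 47.0% of thinned ECs and Aqp7 in 18.5%, 24.8% and 29.0%, and both orders ran the way of the CPM. Before thinning the Aqp7 shares were 37.0%, 37.5% and 34.7%, with no such order. Fabp4 was seen in 96.1%, 98.8% and 95%, Cd36 in 75.3%, 82.2% and 73.0%, Fabp5 in 59.1%, 67.9% and 46.5%, Lpl in 35.5%, 35.8% and 35.5%, Meox2 in 19.2%, 13.8% and 18.5% and Pparg in 6.98%, 7.14% and 10.0% of thinned ECs. In capillary ECs at 12 weeks the thinned share was 43.2% for Aqp7 and 66.7% for Tcf15, against 19.8% and 40.0% in the healthy library. The median thinned EC held UMIs of 4, 5 and 5 of the 9 members.

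**Figure D4:**
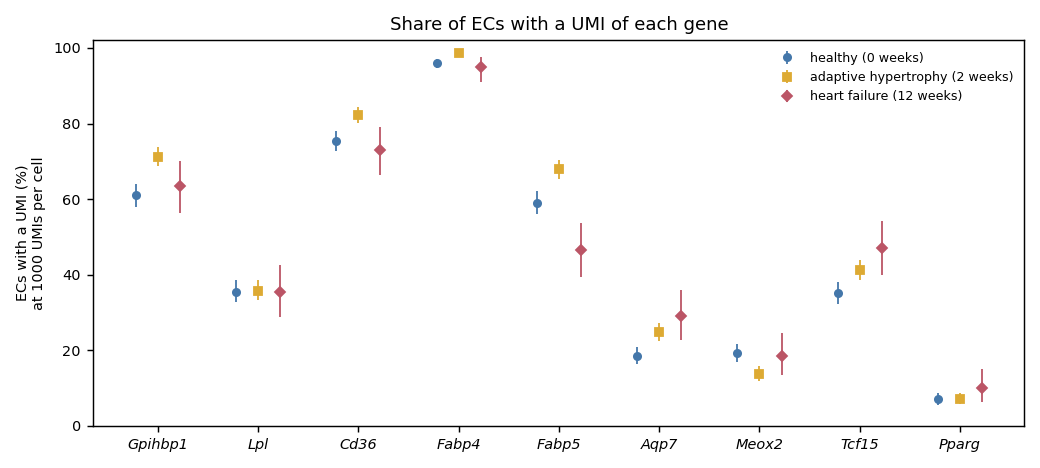
Percentage of ECs with at least 1 UMI of each member after thinning to 1000 UMIs per cell (y axis), by library, with exact binomial 95% intervals. Fabp4 is near the top in all 3 libraries, Tcf15 and Aqp7 step upward from 0 to 12 weeks, and Fabp5 is highest at 2 weeks and lowest at 12 weeks.

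Outside ECs, levels also differed between libraries. In mural cells, Aqp7 was at 2.55 (95% interval 1.20 to 4.93) times its healthy level at 12 weeks on 11 UMIs, while Fabp4 was at 1.42 (95% interval 1.31 to 1.53) at 2 weeks and 0.624 (95% interval 0.535 to 0.723) at 12 weeks. In FBs, Lpl was at 383, 140.4 and 208 CPM, 0.367 (95% interval 0.259 to 0.506) of the healthy level at 2 weeks and 0.545 (95% interval 0.452 to 0.651) at 12 weeks, on 1599, 38 and 131 UMIs. Lpl and Cd36 were 2 of the 6 members with 50 UMIs in FBs past 1.5-fold downward at 2 weeks, against 21% of all genes, and Fabp4, at 1.53, was 1 of 6 upward, against 18.9%. Lpl and Fabp4 were 2 of 6 downward at 12 weeks, against 13.8%. The upward Fabp4 value at 2 weeks rested on the 1 FB with 81 of its 138 UMIs, and without the 3 top cells the level was 201 CPM against 278 in healthy FBs, the other direction. The interval of Cd36 at 2 weeks, 0.298 to 1.28, held 1. In blood cells, Fabp4 was 2.75 (95% interval 2.40 to 3.16) times its healthy level at 2 weeks, and with Fabp5 and Gpihbp1 it was among 3 of 5 members past 1.5-fold upward, against 18.3% of all genes. Gpihbp1 rested on 11 and 39 UMIs there, with an interval of 0.856 to 3.69. Fabp5 in blood cells was at 39.6, 181 and 225 CPM, and at 12 weeks it was 1 of 4 members past 1.5-fold upward, against 19.7% of all genes. Without the 3 top cells, Fabp4 in blood cells at 2 weeks was at 424 CPM against 208. At 12 weeks Cd36 and Lpl, at 0.554 and 0.582, were 2 of 4 downward, against 22.5%, and in this library 53 of the 156 blood cells were macrophage-marked, against 867 of 947 in the healthy one. A single cell decided the Fabp5 value. Of the 75 Fabp5 UMIs in the 53 macrophage-marked cells of the 12-week library, 66 were in 1 cell, and without the top 3 cells the level was 41.6 CPM, against 33.7 in the healthy library by the same count. At 2 weeks, 24 of 135 macrophage-marked cells had a Fabp5 UMI, and the level without the top 3 cells was 98.2 CPM.

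Of 48 further genes of fatty acid transport, lipolysis, storage, oxidation and their transcription, 32 had 50 UMIs over the ECs of the 0- and 2-week libraries and 28 over those of the 0- and 12-week libraries. At 2 weeks 2 were at least 1.5-fold higher and 2 lower, and at 12 weeks 4 were higher and 3 lower, with median log2 ratios of 0.01 and 0.06. Over all genes these shares were 11.7% higher and 11% lower at 2 weeks and 17.9% and 14.4% at 12 weeks, so that the list stood near or below the background. Lipe, hormone-sensitive lipase, was at 64.1, 86.0 and 134 CPM in ECs, 2.09 (95% interval 1.55 to 2.78) times its healthy level at 12 weeks. Rxra, the partner of Pparg on DNA, was at 2.01 (95% interval 1.12 to 3.46) and Acadvl, an enzyme of fatty acid oxidation, at 1.51 (95% interval 1.04 to 2.16). Fabp3, the binding protein of heart muscle, went the other way, from 85.7 to 52.0 and 12.6 CPM, as did the CM markers in the same cells, at 792, 561 and 180.1 CPM, whose part in its level was not tested. Angptl4, an inhibitor of Lpl, was at 0.600 (95% interval 0.267 to 1.19) at 12 weeks, on 9 UMIs, and Acsl4, which activates fatty acids, at 0.433 (95% interval 0.114 to 1.17) on 4. At 2 weeks Cpt1a, the gate of mitochondrial fatty acid import, was at 1.81 (95% interval 1.28 to 2.57) and Acsl1 at 0.632 (95% interval 0.429 to 0.923). Hilpda, a lipid droplet protein, completes the count at 12 weeks and is named with its value known. The remaining genes with 50 UMIs lay between the 1.5-fold limits, and the other listed genes had too few UMIs to be counted.

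Across the 12 sums of class and library, the members followed one another closely, with a Pearson r from 0.59 to 0.97 (median 0.89) over their 36 pairs on the log2(CPM + 10) scale. These 12 points share 3 libraries and are mostly set by the step from ECs to the other classes. Among 9962 genes with 100 UMIs, those most like each member were Timp4 and Kdr for Gpihbp1 (r = 0.991 and 0.989), Angptl4 and Arhgap28 for Lpl (r = 0.936 and 0.917), Pitpnc1 and Pparg for Cd36 (r = 0.983 and 0.971), Kdr and Cmtm8 for Fabp4 (r = 0.983 and 0.981) and Nras and Znrf1 for Fabp5 (r = 0.969 and 0.963). For the others they were Plk2 and Rab11a for Aqp7 (r = 0.984 and 0.980), Mgll and Tmod3 for Meox2 (r = 0.984 and 0.975), Esam and Rbp7 for Tcf15 (r = 0.990 and 0.990) and Cd36 and Tspan13 for Pparg (r = 0.971 and 0.966). Cd36 and Pparg were the only pair of members named for each other, and Kdr was itself an EC marker of the gate.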

How the data were processed

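Ventricular non-cardiomyocytes were isolated by collagenase digestion and Percoll and measured with Chromium Single Cell 3' chemistry v2. The authors made the deposited counts, 1 matrix of raw UMI counts per library, with Cell Ranger 2.0.0 on mm10 per the submitters' processing notes, and the counts were used here as deposited. UMI counts are not scaled to gene length, so levels were not compared between genes.

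Cells with 200 or more genes were kept. A cell took the class whose 8 markers had the largest UMI sum, given at least 3 UMIs and 2 times the next sum, and 68 neural and 359 unassigned cells were left out. UMIs were summed per class and library. Classes were compared with edgeR 4.0.16 (R 4.3.3), quasi-likelihood test, library as block, Benjamini-Hochberg adjustment over all genes tested. Since each library is another phase, these p-values measure the spread of a class difference over 3 libraries whose number of animals is unknown. Phases were compared by ratios of CPM with conditional binomial 95% intervals (scipy 1.17.1). The code was tested on simulated data.

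Named were the 9 members, up to 8 pathway genes past 1.5-fold in ECs in order of UMIs, and for each member the 2 genes most like it. The members and lists were chosen with earlier results of these data known. Alternatives were a stricter gate (5 UMIs, 3 times), a gate by number of markers, 500 genes per cell, a limit of 10% mitochondrial UMIs, removal of Scrublet doublets, longer EC marker lists, cells with UMIs of 1 marker pair alone, DESeq2 1.42.0 as test or scaling, no filter on low counts, no block, each library left out, a mean over cells, scaling to the median ratio, and other limits on folds and UMIs. Removal of cells with 3 or more CM markers was added after seeing the data. Doublets were kept in the reported values: Scrublet marked 35, 2 and 5 cells. Of the listed marker genes, Trbc2 was not among the genes of the matrices. Values of 1 further pathway gene, though counted with its list, are not reported here.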

Additional observations from a re-analysis of the deposited data

Results flagged for a closer look

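In 7 comparisons within ECs, the ratio to the healthy library lay above 1 in one EC group and below 1 in another, with both counting intervals clear of 1. The difference between the groups was not tested, since each phase was 1 library. How many of all genes meet the same rule was not counted, so these 7 have no background share beside them. At 12 weeks 4 members were above the healthy level in capillary ECs and below it in the 35 arterial ECs. For Gpihbp1 the ratios were 1.66 (95% interval 1.499 to 1.84) and 0.349 (0.182 to 0.622), 4.76 times apart. For Tcf15 they were 2.02 (1.72 to 2.36) and 0.580 (0.328 to 0.983), 3.48 times apart. Cd36, at 1.40 and 0.665, and Fabp4, at 1.18 and 0.632, were 2.10 and 1.86 times apart. Cd36 was also 2.04 times apart at 12 weeks between capillary ECs and the 19 venous/endocardial ECs, where it was at 0.684 (0.459 to 0.992).

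At 2 weeks Fabp5 was above its healthy level in capillary ECs, at 1.58 (1.51 to 1.66), and in arterial ECs, at 1.86 (1.20 to 2.94), but below it in venous/endocardial ECs, at 0.852 (0.729 to 0.997). The capillary and arterial ratios were 1.86 and 2.18 times the venous/endocardial one. The healthy venous/endocardial group held 11 Npr3 cells, with 178 of its 312 Fabp5 UMIs, and the groups of the other libraries held 2 each. In the venous/endocardial cells without Npr3, Fabp5 was at 865, 1422 and 963 CPM at 0, 2 and 12 weeks, below the capillary level of each library.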

How the results depend on the processing

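Each log2 class difference of a member was refitted under every alternative that could be run. Of 741 such values, 700 kept direction and side of the threshold, 20 lost the call, 15 gained it and 6 changed sign. The 6 were differences not called in the reported comparison: Fabp5 between capillary and venous/endocardial ECs was -0.084 with the gate by number of markers and -0.068 to 0.39 with a library left out, lowest without the 2-week one, Cd36 and Gpihbp1 between arterial and venous/endocardial ECs were 0.37 and 0.27 with longer EC marker lists, and Gpihbp1 there was 0.20 with cells of 3 or more CM markers removed and -0.37 to 0.11 with a library left out, highest without the 12-week one. For arterial against venous/endocardial ECs, 2 members were called without the library block, in place of 4, and 2 to 4 with a library left out, 2 without the 2-week one. DESeq2 did not call Meox2 or Pparg between capillary and arterial ECs (adjusted p = 0.229 and 0.166) nor Lpl between arterial and venous/endocardial ECs (0.143). Without the block Cd36 was not called between capillary and venous/endocardial ECs (0.0557).

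Of the counts past 1.5-fold between phases, that in ECs at 2 weeks was 2 with the stricter gate or without cells of 3 or more CM markers and 1 with the gate by number of markers, the mean over cells or the median ratio scaling, in place of 0. In ECs at 12 weeks it was 2 with the stricter gate, the gate by number of markers or the mean over cells and 0 at 2-fold, in place of 1. In capillary ECs at 2 weeks it was 0 at 2-fold, in place of 2. At 2-fold the pathway list had 0 and 4 genes at 2 and 12 weeks, in place of 4 and 7. No paired analysis was possible because the labels give no replicate numbers that phases share; the library is the block in the class comparisons. Phase values rest on 1 library each, and the arterial and venous/endocardial groups on 19 to 98 cells.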
